A study of Homo sapiens with 12 samples.

Results

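Initiation is the step of protein synthesis at which the small ribosomal subunit, carrying the initiator tRNA, is brought to an mRNA and finds its start codon. The eIF2 complex delivers the tRNA and is reloaded with GTP by eIF2B, eIF3 holds the complex together, and eIF4E, eIF4G and eIF4A recognise and unwind the capped end of the mRNA. Cells slow the process at 2 main points, by phosphorylation of eIF2 through 4 kinases that sense heme, double-stranded RNA, misfolded protein or missing amino acids, and by repressor proteins that occupy eIF4E until the mTORC1 kinase releases them. Here the mRNA levels of these genes were described in human adrenocortical NCI-H295R cells. The set was every row of the deposited table classed as protein_coding whose symbol begins with EIF and a digit from 1 to 6, without Y-linked rows. It held 55 genes of the 60662 rows listed, of which 19957 are protein_coding, and 51 of the 55 passed a filter of at least 0.5 TPM in at least 4 of the 12 samples. The 4 under the filter were EIF4EBP3, EIF2S3B, EIF5AL1 and EIF4E1B.

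NCI-H295R is an established line from an adrenocortical carcinoma that secretes cortisol. Confluent cultures were kept for 12 h without serum and then given vehicle (VEH, 0.1% DMSO), CJ28 (30 µM), a benzimidazolylurea made in-house, or metyrapone (MET, 30 µM), an inhibitor of the last enzyme of cortisol synthesis, and RNA was taken after 24 h. There were 4 samples per group, described as biological replicates without more detail, so that p-values measure the spread between these samples, and all 3 groups shared the serum-free step. The summed TPM of 5 adrenocortical marker genes was 269 to 279 in VEH, 268 to 282 in MET and 108 to 116 in CJ28, with all 5 expressed in each group. By contrast, 4 endothelial markers together stayed at or under 0.11 TPM and 4 leukocyte markers at or under 0.73. Of 5 chromaffin cell markers, TH was at 0 in every sample and CHGB at 4.46 to 6.45 TPM. TPM is a share of all transcripts corrected for length, so it can be compared between genes, but the table keeps no read depth and no counting error can be given for a single value. In these bulk cultures fewer cells that express a gene and less RNA per cell cannot be told apart.

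All fold changes are differences of mean log2(TPM + 0.1) with their standard errors (SE), from 1 limma fit over the 16815 genes that passed the filter. A gene was called when its Benjamini-Hochberg adjusted p, taken over all those genes, was under 0.05. In CJ28, nuclear protein-coding genes held 213147 of the 1000000 TPM of a sample on average, against 245782 in VEH and 243365 in MET, and the median log2 fold change of all genes tested was -0.13 for CJ28 against VEH. TPM was therefore also divided by median-of-ratios factors, which moved that median to 0.01, and recomputed over nuclear protein-coding genes alone, where the median of the genes then tested was 0.09.

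In CJ28 some initiation genes rose and others fell, and in MET none was called. For CJ28 against VEH, 35 of the 51 genes tested were called (limma), 17 higher and 18 lower. Of all genes tested 57.0% were called, 19.9% higher and 37.1% lower. The share of initiation genes called lower (35.3%) was near that background, and the share called higher was 33.3%. The groups did not overlap in 15 genes on the high side and 16 on the low side, against 17.7% and 32.7% of all genes. With median-of-ratios scaling the split of the 35 called genes was 26 higher and 9 lower, against 29.3% and 26.3% of all genes (55.6% called in all). Over nuclear protein-coding genes alone it was 30 higher and 9 lower of 39 called, against 39.2% and 26.3% (65.6% called in all). Under all 3 scalings 17 genes were called higher (EIF1, EIF2AK3, EIF2B2, EIF2B3, EIF2B4, EIF2S2, EIF3D, EIF3E, EIF3F, EIF3G, EIF3H, EIF3L, EIF4EBP1, EIF4G3, EIF5, EIF5A2 and EIF6) and 9 lower (EIF1AX, EIF4A1, EIF4A3, EIF4E, EIF4E2, EIF4EBP2, EIF4G2, EIF4H and EIF5A). By construction both other scalings raise every gene in CJ28 against VEH. Genes called higher were therefore likely to keep their call, and mainly lower calls could be lost. The share of all genes called under all 3 scalings was not taken. The other 9 genes called lower in TPM as deposited depended on the scale. EIF2B1, EIF3B, EIF3M and EIF4A2 changed sign under a scaling, and EIF1AD, EIF2AK2, EIF4ENIF1, EIF4G1 and EIF5B lost the call. The median log2 fold change of the 51 genes was 0.01, and 0.16 and 0.21 under the other scalings. Together the 55 genes held 0.845% ± 0.0121 (SD, n = 4) of nuclear protein-coding TPM in VEH, 0.842% ± 0.00747 in MET and 0.982% ± 0.0103 in CJ28. Their summed TPM as deposited changed little, with 2077 ± 47.9 in VEH, 2048 ± 27.5 in MET and 2093 ± 23.6 in CJ28. The larger share in CJ28 thus went with the smaller nuclear protein-coding total there.

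**Figure D1:**
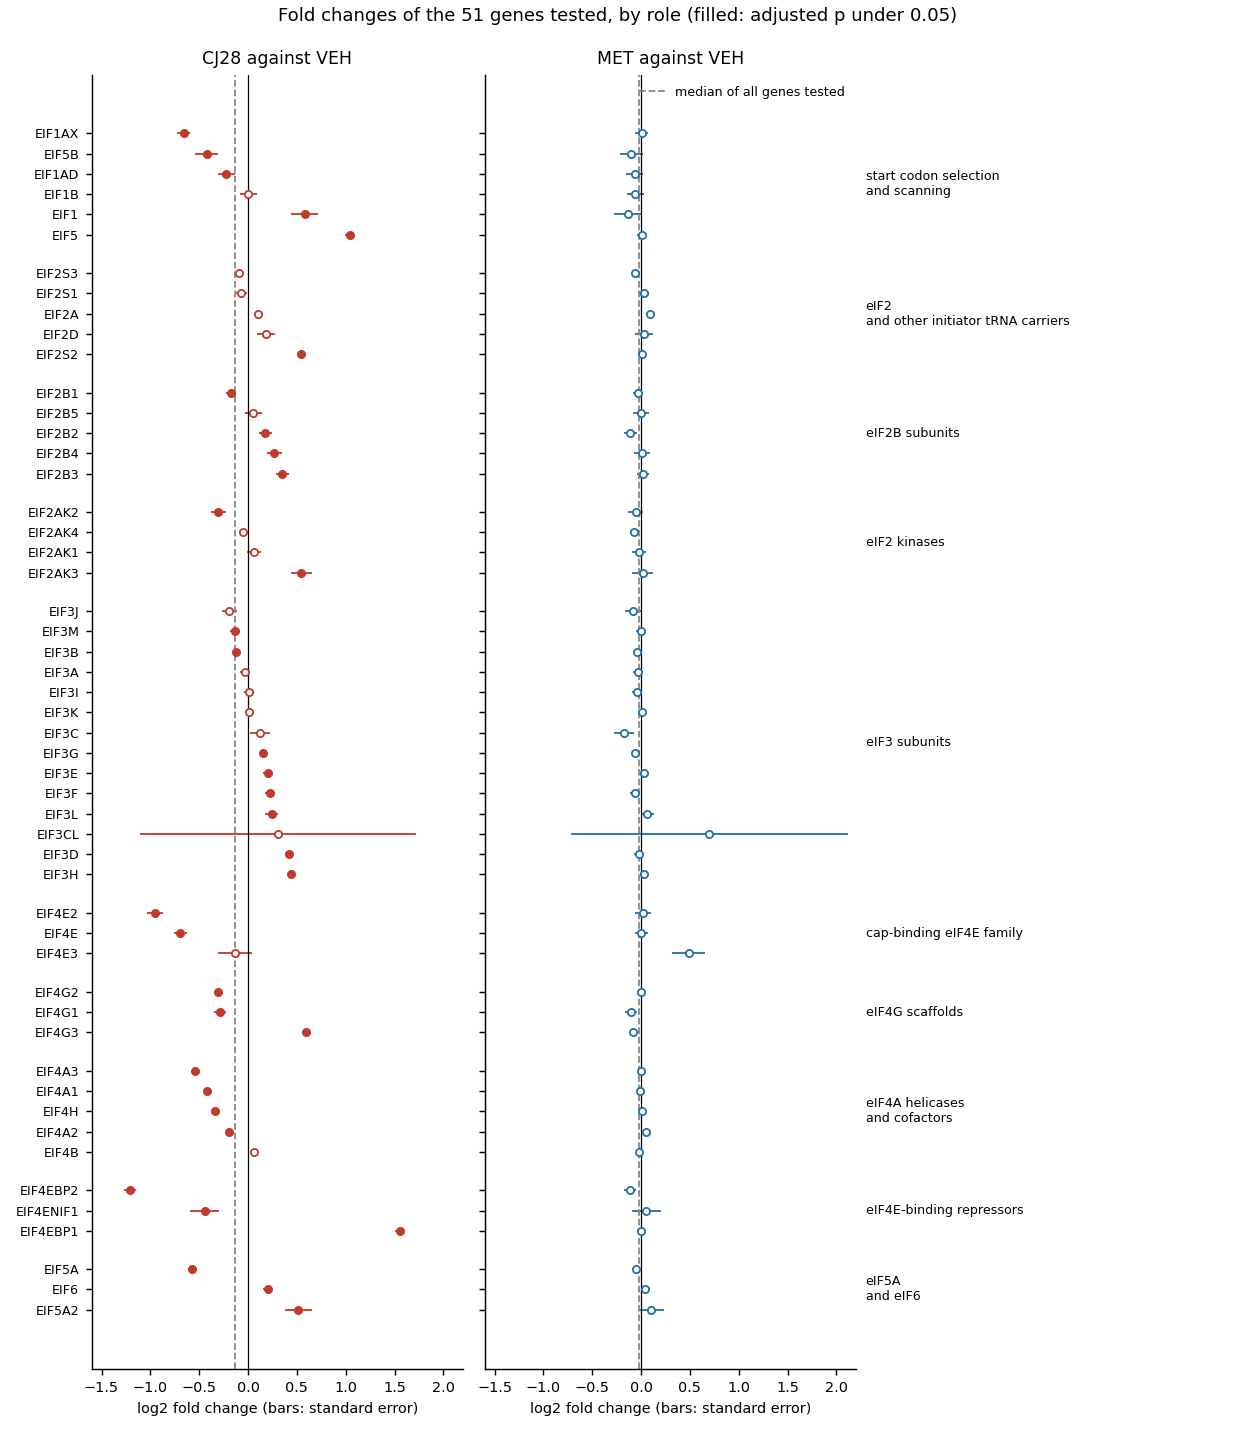
Log2 fold change of each of the 51 genes tested, for CJ28 against VEH on the left and MET against VEH on the right, grouped by role, with bars for the standard error and filled points for an adjusted p under 0.05 in limma. Filled points lie on both sides of 0 for CJ28, from EIF4EBP2 at -1.21 to EIF4EBP1 at 1.56, and no point is filled for MET. The dashed lines mark the medians of all genes tested, -0.13 and -0.03.

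The repressors of eIF4E showed the largest changes in each direction. EIF4EBP1 (chromosome 8, 38030534 to 38060365 on GRCh38), whose product binds eIF4E and keeps it from eIF4G until mTORC1 phosphorylates it, had 22.6, 21.5, 21.0 and 21.7 TPM in the 4 VEH samples, 62.3, 65.0, 62.0 and 66.5 in CJ28 and 20.3, 23.3, 20.7 and 22.7 in MET. Every CJ28 sample lay above every VEH and MET sample. Its mean was 2.95 times that of VEH, with a log2 fold change of 1.56 (SE 0.05, adjusted p = 5.48e-11), and under the other scalings the log2 fold change was 1.71 and 1.76. EIF4EBP2 (chromosome 10, 70404145 to 70428618), a paralog with the same function, had 10.97, 13.2, 10.7 and 12.2 TPM in the 4 VEH samples, 5.13, 5.04, 4.88 and 5.0 in CJ28 and 11.2, 10.8, 10.6 and 10.8 in MET. It was low in all 4 CJ28 samples, which did not overlap with the others and held 0.426 of the VEH mean, with a log2 fold change of -1.21 (SE 0.06, adjusted p = 5.16e-09). Their scarce paralog EIF4EBP3 (chromosome 5, 140547662 to 140549576) was not tested, with 0 to 0.61 TPM over the 12 samples and overlapping groups. It is also part of the readthrough gene ANKHD1-EIF4EBP3, with which it could share reads, and their summed TPM was 3.09 ± 0.460 in VEH, 3.22 ± 0.335 in MET and 4.13 ± 0.253 in CJ28 (SD, n = 4). Most of this sum was assigned to the readthrough gene, as EIF4EBP3 alone averaged 0.29 TPM in VEH and 0.35 in CJ28. For CJ28 against VEH this sum differed by 0.43 on the log2 scale (two-sided exact permutation test, p = 0.0286, adjusted p = 0.0536 over 15 tests of sums). No comparison of 4 with 4 samples can give a smaller exact p. EIF4ENIF1, which carries eIF4E into the nucleus, was called lower in TPM as deposited (log2 fold change -0.44, SE 0.15) and not called under the other scalings, nor without VEH replicate 1 or CJ28 replicate 3, where its log2 fold change was -0.40 to -0.39.

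EIF4EBP1 was the more abundant paralog in every sample, and its TPM per TPM of EIF4EBP2 was 1.63 to 2.06 in VEH, 1.82 to 2.16 in MET and 12.1 to 13.3 in CJ28. This ratio was chosen after its values had been seen and was not tested. The summed TPM of the 3 repressors per TPM of EIF4E was 0.655, 0.710, 0.613 and 0.725 in the 4 VEH samples, 2.21, 2.10, 2.10 and 2.61 in CJ28 and 0.600, 0.636, 0.651 and 0.738 in MET. A ratio inside a sample does not depend on how TPM is scaled. It was 3.33-fold higher in CJ28 than in VEH (SE 0.092 on the log2 scale, two-sided exact permutation test, p = 0.0286, adjusted p = 0.0476 over 15 tests of ratios) and did not separate MET from VEH (exact permutation test, p = 0.629). EIF4EBP1, EIF4EBP2 and EIF4E were each called on their own, and this test was chosen with earlier results of these data known. The ratio is therefore no separate evidence.

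The mRNAs of 2 of the 3 cap-binding proteins tested fell in CJ28. EIF4E (chromosome 4, 98871684 to 98930637), which binds the cap of the mRNA, had 51.2, 49.3, 52.2 and 47.6 TPM in the 4 VEH samples, 30.9, 33.4, 32.1 and 27.5 in CJ28 and 53.3, 53.7, 48.3 and 45.8 in MET. The CJ28 samples were all below the rest, with a log2 fold change of -0.69 (SE 0.07, adjusted p = 1.7e-06). EIF4E2 (chromosome 2, 232550674 to 232583644), a relative that binds the cap without recruiting eIF4G, had 24.1, 23.8, 19.5 and 21.2 TPM in the 4 VEH samples, 12.0, 10.1, 11.6 and 11.9 in CJ28 and 21.3, 25.3, 21.7 and 21.4 in MET. It was again low in every CJ28 sample, with a log2 fold change of -0.95 (SE 0.08, adjusted p = 7.15e-07). The ratio of EIF4E2 to EIF4E was 0.444 ± 0.0489 in VEH and 0.372 ± 0.0545 in CJ28 (SD, n = 4), and the samples overlapped (exact permutation test, p = 0.114, adjusted p = 0.156). EIF4E3, a further relative, was near 1 TPM and was not called for CJ28 against VEH under any scaling (log2 fold change -0.13, SE 0.17 as deposited), with a sign that turned under the others (0.0059 and 0.06). EIF4E1B had 0.01 to 0.11 TPM.

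**Figure D2:**
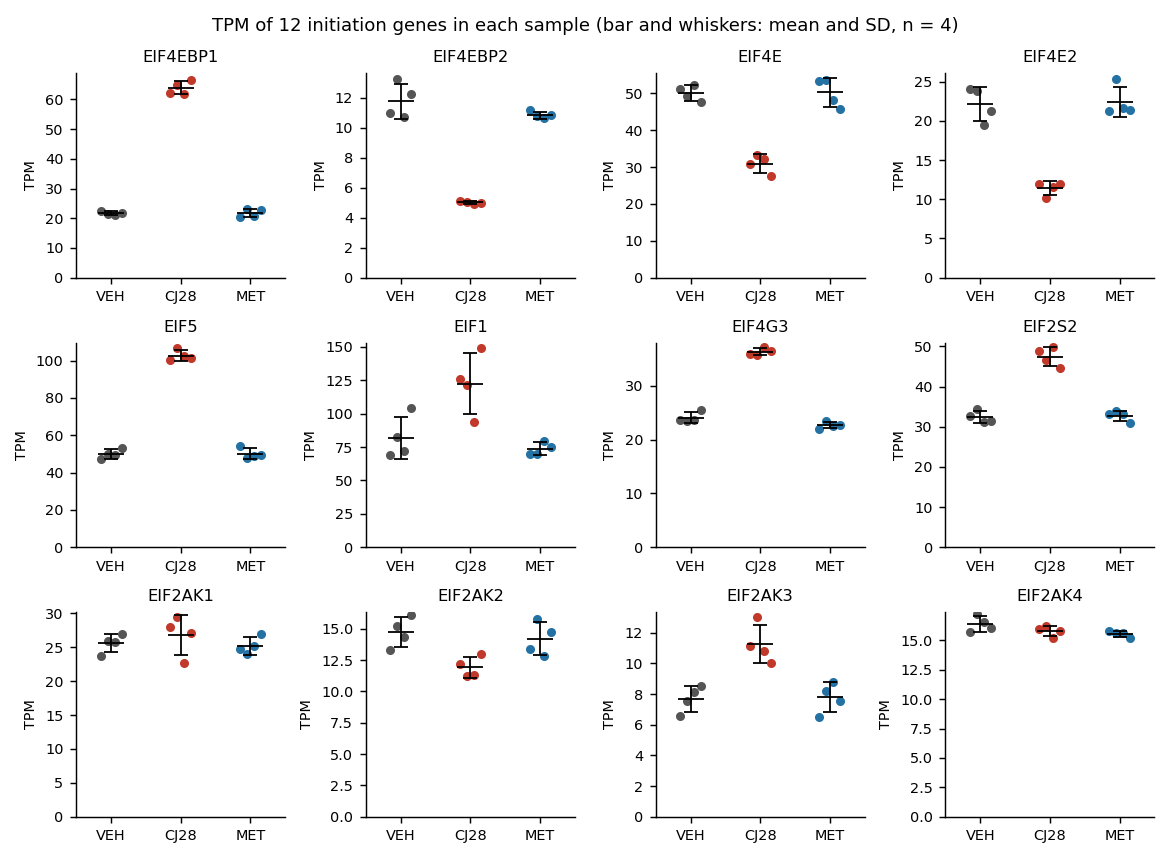
TPM of 12 initiation genes in each of the 12 samples, with the mean and SD of each group of 4. EIF4EBP1 and EIF5 are high and EIF4EBP2, EIF4E and EIF4E2 low in all 4 CJ28 samples without overlap, EIF1 overlaps between CJ28 and VEH, and among the kinases only EIF2AK3 is higher and EIF2AK2 lower in every CJ28 than in every VEH sample.

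In the eIF4G family of scaffolds, EIF4G3 was called higher and EIF4G2 lower under all 3 scalings. EIF4G1 was called lower only in TPM as deposited. EIF4G3 (chromosome 1, 20806292 to 21176888), a paralog of EIF4G1, had 23.6, 23.4, 23.6 and 25.6 TPM in the 4 VEH samples, 35.9, 35.7, 37.2 and 36.4 in CJ28 and 22.0, 23.4, 22.6 and 22.6 in MET. Its CJ28 samples were all above the others, with a log2 fold change of 0.59 (SE 0.04, adjusted p = 2.65e-08). EIF4G1 (chromosome 3, 184314495 to 184335358), the main scaffold, was the most abundant of the family in VEH with 67.3 ± 5.23 TPM (SD, n = 4) and had 55.1 ± 4.17 in CJ28, with a log2 fold change of -0.29 (SE 0.06, adjusted p = 0.00168). CJ28 replicate 4 (61.0 TPM) lay above VEH replicate 3 (59.7 TPM) and the call was lost under both other scalings. EIF4G2, which lacks the binding site for eIF4E, had 63.3 ± 2.48 TPM in VEH and 51.2 ± 1.99 in CJ28, with a log2 fold change of -0.31 (SE 0.04, adjusted p = 1.43e-05). It stayed called with a log2 fold change of -0.15 and -0.10 under the other scalings. The TPM of EIF4G3 per TPM of EIF4G1 was 0.331 to 0.395 in VEH, 0.357 to 0.368 in MET and 0.597 to 0.727 in CJ28. This ratio too was chosen after its values had been seen and was not tested.

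Among the helicases and their cofactors, EIF4A1 (chromosome 17, 7572706 to 7579006), which unwinds the 5′ end of mRNAs and was the most abundant of all 55 genes in VEH, had 232, 234, 232 and 225 TPM in the 4 VEH samples, 169, 176, 171 and 177 in CJ28 and 224, 242, 224 and 224 in MET. Every CJ28 sample was below every other sample, with a log2 fold change of -0.42 (SE 0.03, adjusted p = 1.85e-07), and -0.26 and -0.21, still called, under the other scalings. Its summed TPM with the overlapping readthrough gene SENP3-EIF4A1 gave the same log2 difference of -0.42. EIF4A3, the helicase of the exon junction complex, had 30.8 ± 0.293 TPM in VEH and 21.1 ± 0.921 in CJ28, with a log2 fold change of -0.55 (SE 0.04, adjusted p = 1.17e-07), and -0.39 and -0.34 under the other scalings. EIF4H, a cofactor of eIF4A, had 79.2 ± 2.74 TPM in VEH and 62.4 ± 0.862 in CJ28, with a log2 fold change of -0.34 (SE 0.03, adjusted p = 1.96e-06). It too stayed called, with -0.19 and -0.14 under the other scalings. EIF4A2, the close paralog of EIF4A1, was called lower in TPM as deposited with -0.19 but had -0.04 with median-of-ratios scaling and 0.01 over nuclear protein-coding genes, so its direction depended on the scale. Inside each sample the ratio of EIF4A2 to EIF4A1 was 0.430 to 0.458 in VEH, 0.459 to 0.472 in MET and 0.478 to 0.545 in CJ28. Both treated groups were above VEH without overlap (exact permutation test, p = 0.0286, adjusted p = 0.0476 for each), by 1.17-fold in CJ28 and 1.05-fold in MET. The gap for MET was very small, with 0.458 as the highest VEH and 0.459 as the lowest MET ratio. This p is the smallest the test can give, and its adjusted value depends on how many other ratio tests reached it. EIF4B, a further cofactor with 129 ± 2.31 TPM in VEH and 135 ± 3.91 in CJ28, was not called as deposited (log2 fold change 0.06, SE 0.03), except without CJ28 replicate 4 (0.08), and called higher under both other scalings.

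**Figure D3:**
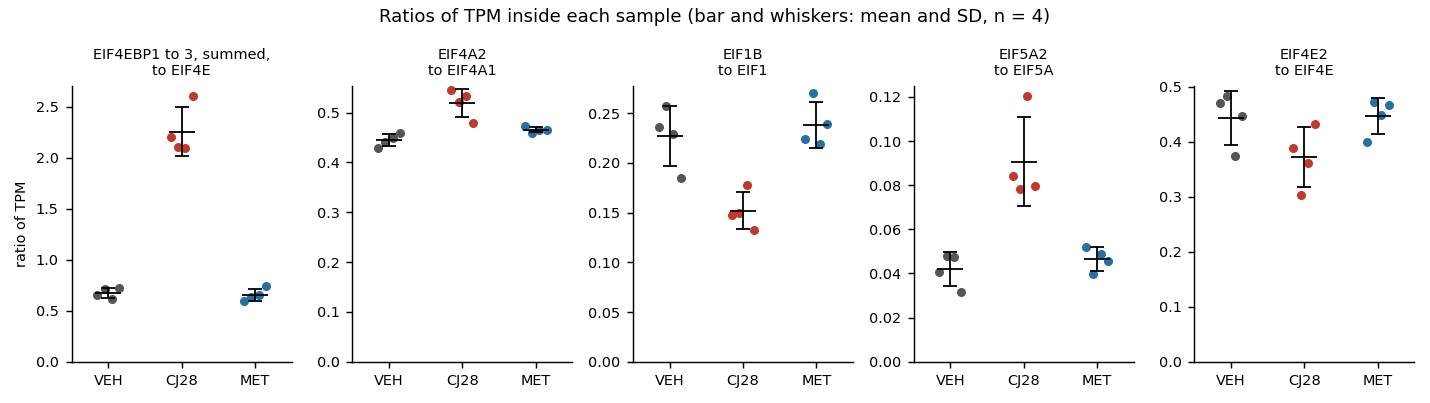
Ratios of TPM between initiation genes inside each of the 12 samples, with the mean and SD of each group of 4. The ratio of the 3 repressors to EIF4E is at least 2.10 in every CJ28 sample and at most 0.738 in every other sample, EIF5A2 to EIF5A is also higher and EIF1B to EIF1 lower in CJ28, and EIF4E2 to EIF4E overlaps between the groups.

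Promoters of 46 of the 55 genes were found in the RefSeq table for GRCh38.p14, which gives 250 bases before and 50 after each start. The other 9 were EIF2AK1, EIF2S2, EIF3A, EIF3CL, EIF3E, EIF3G, EIF3H, EIF3L and EIF4EBP1, so that 11 of the 17 genes called higher and all 18 called lower had a promoter there. The E-box CACGTG, a palindrome recognised by factors such as MYC and USF, occurred in the promoters of 12 of the 46 genes (26.1%), against 8.77% of the 27305 genes with a promoter there. Of these 12, EIF4E, EIF4A3, EIF4H, EIF4G1 and EIF2AK2 were called lower in CJ28 as deposited and EIF2B3, EIF3F and EIF5A2 higher. EIF1B, EIF3K and EIF4B were not called as deposited and EIF4EBP3 was not tested. The sequence TGATGNAA of the C/EBP-ATF composite element, searched on both strands, was found for 1 of the 46 genes (EIF4E3), against 4.46% of all genes, and the cAMP response element TGACGTCA for 0, against 2.25%. These backgrounds are not matched to the set. They hold more genes than the 19957 protein_coding rows and were not filtered by expression. A gene counted when any of its promoters matched, and the 46 genes had 62 promoters. The windows of 3 genes of the eIF4 group that fell and of 1 eIF2B subunit that rose show where the E-boxes lie. Each is the 250 bases up to the start of transcription in RefSeq, 5′ to 3′, with the E-box in capitals. In all 4 genes that start lies inside the longer extent of the gene in the deposited table. That of EIF4E, with 2 copies, is chr4:98929134-98929383 on the minus strand. EIF4A3 lies at chr17:80147129-80147378 on the minus strand, EIF4H at chr7:74174106-74174355 on the plus strand and EIF2B3 at chr1:44986596-44986845 on the minus strand. A match describes these letters and does not show that a factor was bound.
EIF4E: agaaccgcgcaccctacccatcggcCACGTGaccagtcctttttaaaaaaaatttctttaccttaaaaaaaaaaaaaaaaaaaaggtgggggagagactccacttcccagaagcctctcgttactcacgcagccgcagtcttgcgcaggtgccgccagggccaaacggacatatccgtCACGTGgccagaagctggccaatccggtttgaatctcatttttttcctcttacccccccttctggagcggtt
EIF4A3: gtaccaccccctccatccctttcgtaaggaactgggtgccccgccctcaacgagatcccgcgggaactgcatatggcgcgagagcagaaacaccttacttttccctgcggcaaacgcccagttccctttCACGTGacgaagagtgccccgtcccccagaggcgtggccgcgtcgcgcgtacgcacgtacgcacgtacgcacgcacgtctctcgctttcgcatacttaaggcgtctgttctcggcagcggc
EIF4H: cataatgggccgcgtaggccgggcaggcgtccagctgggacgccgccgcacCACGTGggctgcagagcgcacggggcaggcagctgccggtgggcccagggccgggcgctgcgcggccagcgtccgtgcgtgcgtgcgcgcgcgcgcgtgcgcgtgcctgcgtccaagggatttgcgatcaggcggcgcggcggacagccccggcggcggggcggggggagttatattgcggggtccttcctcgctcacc
EIF2B3: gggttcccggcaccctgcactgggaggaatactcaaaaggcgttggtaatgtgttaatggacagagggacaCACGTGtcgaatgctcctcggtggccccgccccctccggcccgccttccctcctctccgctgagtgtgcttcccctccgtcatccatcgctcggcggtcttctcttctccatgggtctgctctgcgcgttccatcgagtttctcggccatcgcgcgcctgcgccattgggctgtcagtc

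In the group of factors that select the start codon, EIF5 (chromosome 14, 103333544 to 103345025), the GTPase-activating protein of eIF2, had 47.1, 50.2, 49.3 and 53.2 TPM in the 4 VEH samples, 100.4, 107, 103 and 101 in CJ28 and 54.4, 47.8, 49.0 and 49.7 in MET. All 4 CJ28 samples were near 2.06 times the mean of VEH and did not overlap with it, with a log2 fold change of 1.04 (SE 0.05, adjusted p = 1.54e-09). EIF1 (chromosome 17, 41688885 to 41692668), which guards the fidelity of start codon choice, had 69.1, 82.6, 72.2 and 104 TPM in the 4 VEH samples, 126, 122, 93.6 and 149 in CJ28 and 69.98, 70.10, 79.7 and 75.3 in MET. Its samples spread widely, and CJ28 replicate 3 lay below VEH replicate 4. It was nevertheless called higher, with a log2 fold change of 0.58 (SE 0.14, adjusted p = 0.00352), and stayed called with every sample left out in turn. Its paralog EIF1B had 16.3 to 21.3 TPM in VEH and 16.6 to 19.7 in CJ28. It was not called as deposited or with median-of-ratios scaling, and was called higher over nuclear protein-coding genes (log2 fold change 0.21). The ratio of EIF1B to EIF1 was lower in CJ28, at 0.152 ± 0.0187 against 0.227 ± 0.0302 (SD, n = 4, exact permutation test, p = 0.0286, adjusted p = 0.0476). EIF1AX (chromosome X, 20124525 to 20141838), which acts beside eIF1 in scanning, had 21.4, 20.9, 24.2 and 22.0 TPM in the 4 VEH samples, 14.9, 14.5, 14.5 and 12.0 in CJ28 and 23.4, 22.0, 21.4 and 22.0 in MET. The CJ28 samples were again separate, on the low side, with a log2 fold change of -0.66 (SE 0.07, adjusted p = 4.11e-06). EIF5B, which brings in the large ribosomal subunit, was called lower as deposited (log2 fold change -0.42, SE 0.12) and not called under the other scalings. EIF1AD, a protein related to EIF1AX, was called lower as well (log2 fold change -0.22, SE 0.09), a call lost under both scalings and without any 1 of 7 samples (all 4 of CJ28 and VEH replicates 1, 2 and 4), where its log2 fold change was -0.24 to -0.17.

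Of the eIF2 complex itself, only the beta subunit EIF2S2 (chromosome 20, 34088309 to 34112243) was called in TPM as deposited. It had 32.7, 34.5, 31.2 and 31.5 TPM in the 4 VEH samples, 48.7, 46.5, 49.9 and 44.7 in CJ28 and 33.1, 33.8, 33.0 and 31.0 in MET. The CJ28 samples were all above the others, with a log2 fold change of 0.54 (SE 0.05, adjusted p = 5.31e-07). The alpha subunit EIF2S1, the target of the eIF2 kinases, had 37.1 ± 1.23 TPM in VEH, 37.8 ± 2.76 in MET and 35.4 ± 2.04 in CJ28 and was not called as deposited (log2 fold change -0.07, SE 0.06 for CJ28 against VEH). Under the other scalings its log2 fold change turned to 0.08 and, called higher, 0.14. The gamma subunit EIF2S3 had 26.1 ± 0.970, 24.9 ± 0.977 and 24.5 ± 0.316 TPM in the same order. Its log2 fold change of -0.09 (SE 0.04) for CJ28 against VEH was not called, though it was without MET replicate 3 or VEH replicate 1 (-0.09 and -0.11), and it turned to 0.06 and, called, 0.11 under the other scalings. EIF2S3B, a near copy of EIF2S3, had 0.09 to 0.31 TPM, and EIF2A and EIF2D, which can carry initiator tRNA without eIF2, were not called as deposited (log2 fold change 0.11, SE 0.04, and log2 fold change 0.19, SE 0.09) and called higher under both other scalings. Leaving out MET replicate 4 or CJ28 replicate 4 also brought EIF2A, and leaving out MET replicate 4 EIF2D, under the threshold, with log2 fold changes of 0.11 to 0.13 and of 0.19.

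The 5 subunits of eIF2B, the exchange factor that phosphorylated eIF2 inhibits, stood at 7.86 to 17.2 TPM on average in VEH, below every subunit of eIF2. EIF2B3 (chromosome 1, 44850522 to 44986722) had the largest change, from 7.22, 7.56, 7.84 and 8.80 TPM in VEH to 10.8, 9.47, 10.3 and 9.68 in CJ28, with a log2 fold change of 0.35 (SE 0.06, adjusted p = 0.000471). MET had 7.58 to 8.26 TPM. CJ28 did not overlap with either group. EIF2B4 (log2 fold change 0.27, SE 0.08) and EIF2B2 (log2 fold change 0.18, SE 0.07) were called higher too, the latter with a loss of the call when CJ28 replicate 1, 2 or 4 or VEH replicate 3 or 4 was left out, where its log2 fold change was 0.13 to 0.17. EIF2B1, the regulatory alpha subunit, was called lower as deposited with -0.17, but had -0.02 and 0.03 under the other scalings. EIF2B5, the catalytic subunit, had 9.94 ± 0.471 TPM in VEH and 10.4 ± 1.43 in CJ28, was not called as deposited (log2 fold change 0.05, SE 0.09) and was called higher under the other scalings (0.21 and 0.26).

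Of the 4 eIF2 kinases 1 was called higher, 1 lower and 2 were not called. EIF2AK3 (PERK, chromosome 2, 88556741 to 88627464), which senses misfolded protein in the endoplasmic reticulum, had 6.56, 7.55, 8.11 and 8.50 TPM in the 4 VEH samples, 11.2, 13.0, 10.8 and 10.1 in CJ28 and 6.53, 8.23, 8.80 and 7.57 in MET. It was higher in every CJ28 sample, with a log2 fold change of 0.55 (SE 0.11, adjusted p = 0.000805). EIF2AK2 (PKR, chromosome 2, 37099210 to 37157065), the kinase for double-stranded RNA, had 13.3, 15.2, 14.4 and 16.1 TPM in the 4 VEH samples, 12.2, 11.2, 11.3 and 13.0 in CJ28 and 13.4, 15.8, 12.9 and 14.7 in MET. Each CJ28 sample was below each VEH sample and the gene was called lower (log2 fold change -0.30, SE 0.08), but with -0.15 and -0.10 under the other scalings it was no longer called. EIF2AK1 (HRI, chromosome 7, 6022247 to 6059175), the heme-regulated kinase and the most abundant of the family in VEH, had 23.8, 25.9, 25.7 and 26.9 TPM in the 4 VEH samples, 28.1, 29.5, 22.6 and 27.1 in CJ28 and 24.7, 24.0, 25.1 and 27.0 in MET. These groups overlapped and the gene was not called (log2 fold change 0.06, SE 0.07), except without CJ28 replicate 3, its lowest sample, where the log2 fold change was 0.14. EIF2AK4 (GCN2, chromosome 15, 39934115 to 40035591), which senses uncharged tRNA, had 15.7, 17.3, 16.5 and 16.05 TPM in the 4 VEH samples, 15.98, 16.2, 15.2 and 15.8 in CJ28 and 15.8, 15.6, 15.7 and 15.2 in MET. Its groups overlapped as well, and the log2 fold change was -0.05 (SE 0.04) as deposited, 0.10 with median-of-ratios scaling and 0.15 over nuclear protein-coding genes, called only under the other scalings. EIF2AK1 was also called higher there, with 0.22 and 0.27.

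Among the 14 genes of eIF3, the calls on the high side outnumbered those on the low side, and in TPM as deposited no called change exceeded 0.44 on the log2 scale. Their means in VEH ran from 15.6 TPM for EIF3F to 96.6 TPM for EIF3K, apart from EIF3CL with 1.06, and 6 were called higher, 2 lower and 6 not called, with a median log2 fold change of 0.14, where 19.9% of all genes tested were called higher and 37.1% lower with a median of -0.13. With median-of-ratios scaling 9 were called higher and 0 lower (median 0.29), against 29.3% and 26.3% of all genes (median 0.01). Over nuclear protein-coding genes it was 10 and 0 (median 0.34), against 39.2% and 26.3% (median 0.09). EIF3H (chromosome 8, 116642130 to 116766925) had 43.7, 44.9, 44.2 and 43.5 TPM in the 4 VEH samples, 60.6, 58.9, 61.1 and 59.0 in CJ28 and 45.5, 43.9, 44.8 and 45.5 in MET. The CJ28 samples formed a narrow band above the rest, with a log2 fold change of 0.44 (SE 0.03, adjusted p = 2.65e-08). EIF3D (chromosome 22, 36510855 to 36529184), a subunit that can itself contact the cap, had 40.1 ± 1.77 TPM in VEH and 53.7 ± 1.62 in CJ28, with a log2 fold change of 0.42 (SE 0.04, adjusted p = 4.39e-06). EIF3L, EIF3F, EIF3E and EIF3G rose by smaller amounts, with log2 fold changes of 0.24, 0.23, 0.20 and 0.15. EIF3B and EIF3M were called lower as deposited, with -0.12 and -0.13, and turned to 0.03 and 0.02 with median-of-ratios scaling and to 0.09 and 0.07 over nuclear protein-coding genes. Both calls were also lost without single samples (3 for EIF3B, CJ28 replicates 1 and 4 and VEH replicate 2, and 7 for EIF3M, all 4 of CJ28, VEH replicates 2 and 4 and MET replicate 3), with log2 fold changes of -0.11 to -0.10 and of -0.14 to -0.09. EIF3J, the most loosely attached subunit, had the lowest value as deposited, log2 fold change -0.19, SE 0.08, and was called there only without CJ28 replicate 4 or VEH replicate 1 (-0.23 and -0.25). Under the other scalings it was not called either, with -0.04 and 0.015. EIF3C and EIF3CL are near copies of each other on chromosome 16, and common reads could have been divided between them. EIF3CL spanned 0 to 4.5 TPM inside the CJ28 group. Their summed TPM was 41.8 ± 5.54 in VEH, 36.7 ± 0.665 in MET and 45.3 ± 4.32 in CJ28 (SD, n = 4), with no separation of CJ28 from VEH (exact permutation test, p = 0.343).

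EIF5A (chromosome 17, 7306999 to 7312463), the hypusine-carrying factor that helps ribosomes through difficult peptide bonds, had 123, 120.1, 122 and 129.5 TPM in the 4 VEH samples, 80.3, 85.7, 78.2 and 86.9 in CJ28 and 118, 119, 119 and 121 in MET. It fell in all 4 CJ28 samples, with a log2 fold change of -0.58 (SE 0.04, adjusted p = 4.82e-08), and -0.43 and -0.37 under the other scalings. Its sum with the near copy EIF5AL1, which had 0.07 to 0.20 TPM, gave the same log2 difference of -0.58. EIF5A2, its scarcer paralog, had 4.99, 5.75, 5.82 and 4.11 TPM in the 4 VEH samples, 6.74, 6.69, 9.43 and 6.92 in CJ28 and 6.14, 4.72, 5.77 and 5.50 in MET. It was higher in every CJ28 sample, with a log2 fold change of 0.52 (SE 0.13, adjusted p = 0.00542). The ratio of EIF5A2 to EIF5A was 2.15-fold higher in CJ28 than in VEH (exact permutation test, p = 0.0286, adjusted p = 0.0476). Both genes were already called in opposite directions without overlap, so the ratio had to separate and is no separate evidence. EIF6, which keeps the ribosomal subunits apart, had 37.8 ± 1.02 TPM in VEH and 43.6 ± 2.66 in CJ28, with a log2 fold change of 0.20 (SE 0.05, adjusted p = 0.00245).

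**Figure D4:**
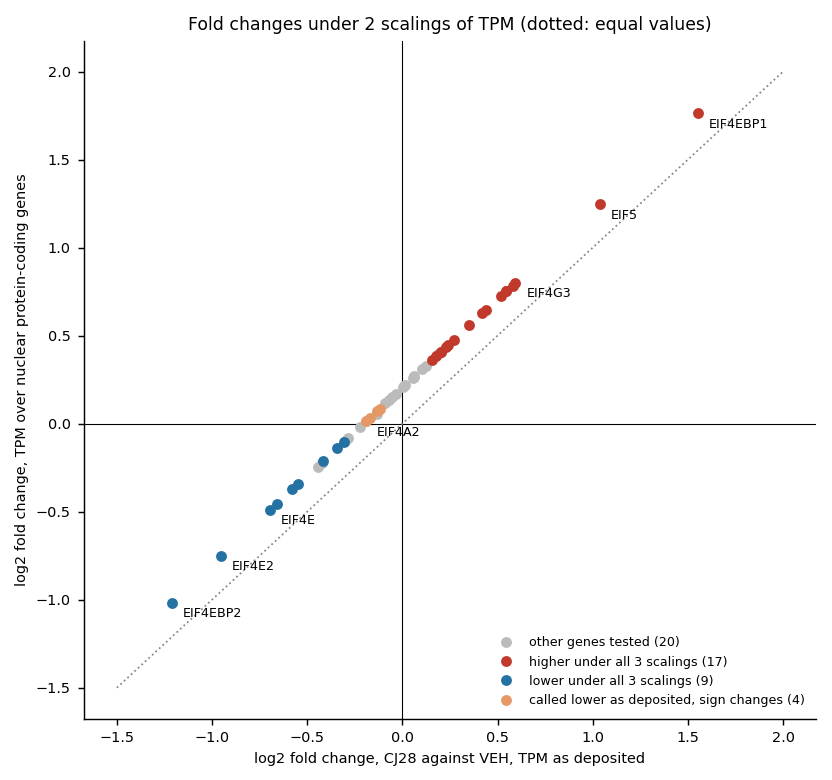
Log2 fold change for CJ28 against VEH in TPM as deposited (x axis) and in TPM recomputed over nuclear protein-coding genes (y axis) for 50 genes, EIF3CL being left out for its spread. All points lie above the dotted line of equal values, the 17 red and 9 blue genes keep their direction and call under all 3 scalings, and the 4 orange genes EIF2B1, EIF3B, EIF3M and EIF4A2, called lower as deposited, cross 0, as do 6 genes that were not called there.

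For MET, of the 51 genes 0 were called for MET against VEH (limma), against 0.00595% of all genes tested, and 2 had an unadjusted p under 0.05, EIF4E3 and EIF4G3, against 5.20% of all genes. EIF4E3 (chromosome 3, 71675414 to 71754773) had 0.90, 1.24, 1.28 and 1.42 TPM in VEH, 0.78, 1.29, 1.09 and 1.23 in CJ28 and 1.59, 1.63, 2.10 and 1.58 in MET. The MET samples were all above the VEH samples, by 0.49 on the log2 scale (SE 0.17, unadjusted p = 0.0145 and adjusted p = 0.933 in limma). For EIF4G3 the MET samples were all below the VEH samples, by -0.08 (SE 0.04, adjusted p = 0.933 in limma), and for EIF2A, next by p, the log2 fold change was 0.09 (SE 0.04, adjusted p = 0.933 in limma). MET and VEH overlapped in the other 49 genes tested, EIF2A included, and of all genes tested 0.779% were higher and 2.03% lower in MET without overlap.

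CJ28 and MET were given at the same concentration for the same time and were compared directly. Between them 36 of the 51 genes were called (limma), 19 higher and 17 lower in CJ28, against 55.5% of all genes called, 20.9% higher and 34.6% lower. The groups did not overlap in 16 genes higher and 15 lower in CJ28, against 18.9% and 31.3% of all genes. With median-of-ratios scaling the split was 27 higher and 12 lower, against 28.7% and 26.1% (54.8% called in all). Over nuclear protein-coding genes it was 30 higher and 10 lower, against 40.3% and 25.3% (65.6% called in all). EIF4EBP1 and EIF4EBP2 differed by 1.55 (SE 0.05) and -1.10 (SE 0.06), EIF5 by 1.03 (SE 0.05), EIF4E by -0.70 (SE 0.07), EIF4G3 by 0.68 (SE 0.04) and EIF2AK3 by 0.53 (SE 0.11) on the log2 scale. EIF4E3 was called lower in CJ28 than in MET, by -0.62 (SE 0.17), while it was called in neither comparison with VEH. Some calls were lost when any 1 of 2 or more samples was left out. These were EIF4B, EIF3L, EIF3C and EIF5A2 (higher) and EIF2B1, EIF3M, EIF5B and EIF4G1 (lower). Among these fits the call of EIF2AK2 was lost only without MET replicate 2 (-0.20), and 29 to 36 genes were called over them. EIF2AK2 was also not called under either other scaling (-0.13 and -0.06). Under at least 1 scaling EIF4A2, EIF4ENIF1 and EIF5B lost the call too, and EIF2B1, EIF3M and EIF4G1 changed sign. This comparison shares its CJ28 samples with the one against VEH.

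Genes that act on or beside these factors were taken from 5 lists. Their counts are to be read against the 19.9% of all genes called higher, the 37.1% called lower and the median of -0.13. Under the other scalings that median was 0.01 and 0.09. Of 9 regulators of eIF2 phosphorylation 4 were called higher and 3 lower in CJ28 against VEH, with a median log2 fold change of 0.08 (0.23 and 0.28 under the other scalings). PPP1R15A, which directs a phosphatase to eIF2 alpha, had 8.91 ± 0.448 TPM in VEH and 45.1 ± 2.51 in CJ28, which is 2.33 (SE 0.05) on the log2 scale. OMA1, the mitochondrial protease that activates the DELE1 signal to HRI, fell (log2 fold change -0.56, SE 0.11). So did TARBP2, an inhibitor of PKR (log2 fold change -0.36, SE 0.07). In the list of ATF4, the factor translated when eIF2 is phosphorylated, and its target genes, 9 of 10 were called higher and ATF5 lower. DDIT3 and TRIB3 rose by 3.20 (SE 0.04) and 3.53 (SE 0.05), ASNS by 1.98 (SE 0.06), and ATF4 mRNA itself by 0.26 (SE 0.03).

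Of 10 genes of mTORC1 and its regulators 3 were called higher and 3 lower, with a median of 0.01 (0.16 and 0.21 under the other scalings). Without CJ28 replicate 1, 2 or 4 or VEH replicate 3 only 1 was called higher, since TSC2 and RPS6KB2 then missed the threshold, with log2 fold changes of 0.23 to 0.26 and 0.14 to 0.19. The inhibitory subunit AKT1S1 (log2 fold change -0.86, SE 0.10) and LAMTOR1 (log2 fold change -0.46, SE 0.06), which anchors mTORC1 at the lysosome, fell, and the subunit MLST8 rose (log2 fold change 0.40, SE 0.09). MTOR was not called as deposited (log2 fold change 0.05, SE 0.04). Of 13 initiation partners 1 was called higher and 6 lower, with a median of -0.20 (-0.05 and 0.0076 under the other scalings). PAIP1, which stimulates initiation through the poly(A)-binding protein, rose (log2 fold change 0.55, SE 0.05), and DDX3X (log2 fold change -0.49, SE 0.06), a helicase for structured mRNAs, and PDCD4 (log2 fold change -0.46, SE 0.05), an inhibitor of eIF4A, fell. Of 11 elongation and release factors 5 were called higher and 3 lower, with a median of 0.06 (0.22 and 0.27 under the other scalings), among them EEF2 (log2 fold change 0.46, SE 0.04) and EEF1A2 (log2 fold change 0.36, SE 0.07) on the high side and the release factor GSPT2 (log2 fold change -0.48, SE 0.08) on the low side. EEF1A1, which brings aminoacyl-tRNA to the ribosome, was called higher with 0.11 (SE 0.04) but not without 7 of the samples in turn (each VEH sample and CJ28 replicates 1, 2 and 3), with 0.08 to 0.12. For MET against VEH 0 genes of the 5 lists were called in limma. Over nuclear protein-coding genes, where 39.2% of all genes were called higher and 26.3% lower, the counts of the mTORC1 list were 6 higher and 2 lower, of the initiation partners 3 and 3, and of the elongation and release factors 8 and 1.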

How the data were processed

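Total RNA of 12 NCI-H295R samples was depleted of ribosomal RNA, made into libraries with a stranded kit and sequenced. The authors trimmed reads with Cutadapt 2.8, aligned them to GRCh38 with STAR 2.7.10b and estimated expression with RSEM 1.3.3, per the labels and the study's methods. The deposited table gives TPM per gene and sample with 2 decimals, summing to 1000000 per sample, so read depth is not kept. The annotation release and the strand setting of the counting are not given in the sources used here. RSEM divides reads shared by near copies (EIF3C and EIF3CL, EIF5A and EIF5AL1, EIF2S3 and EIF2S3B) and by readthrough genes, so their sums were tested too.

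Samples were grouped by the treatment label. Genes with at least 0.5 TPM in at least 4 samples were tested on log2(TPM + 0.1), a scale that understates changes of low genes, with limma 3.58.1 (R 4.3.3; 1 fit of 3 groups, moderated variance with a trend, Benjamini-Hochberg adjustment over 16815 genes). Ratios and sums were tested with two-sided exact permutation tests (SciPy 1.17.1), adjusted over 15 tests each. The fit was run on simulated data with the means of VEH and the spread of VEH and MET. It recovered 144 of 200 changed genes with 6 false calls, among 16815 genes in all. The changes put into the simulated data were 0.5 or 1 on the log2 scale in either direction, so the recovery of smaller changes was not measured. Far fewer genes changed there than were called for CJ28 against VEH, and no shift of scale was simulated. The false calls of the real comparison are therefore not measured by it. The 21 alternative fits were other pseudocounts (1 and 0.01), filters (any TPM above 0, mean TPM of at least 1), scalings, only the groups compared, a replicate block, no variance trend, and each sample left out.

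The genes, lists and tests were chosen with earlier results of these data known. The table itself gives gene positions. Genes were named by rule: the kinases, EIF4EBP1 to EIF4EBP3, the highest and lowest log2 fold change per role for CJ28 against VEH, the 3 lowest p-values for MET, the genes of the ratios and sums, those under the filter, and the 3 largest changes of each further list. Any other gene was named after its values were seen. One Y-linked row was left out.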

Additional observations from a re-analysis of the deposited data

Results flagged for a closer look

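Of 114 groups of 4 samples tested for a sample apart from the rest (33 genes and 5 ratios), 9 had a sample whose gap to its nearest neighbour, as a share of the group's range, exceeded Dixon's critical value, and chance gives about 1 in 20. In CJ28 replicate 4 EIF1AX had 12.02 TPM and EIF4A2 84.53 TPM, each below the other 3 samples, and EIF3CL had 4.5 TPM, above them. In CJ28 replicate 3 EIF5A2 had 9.43 TPM and the ratio of EIF5A2 to EIF5A was 0.121, both above the rest. In MET replicate 2 EIF4A1 had 241.77 TPM and EIF4E2 25.32 TPM, in MET replicate 3 EIF4E3 had 2.10 TPM, and in VEH replicate 4 EIF4G3 had 25.55 TPM, each above the rest of its group. The calls of EIF1AX, EIF4A2, EIF4A1, EIF4E2, EIF4G3 and EIF5A2 for CJ28 against VEH were kept without each of the 12 samples in turn.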

How the results depend on the processing

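For CJ28 against VEH the 17 genes called higher became 30 over nuclear protein-coding genes alone and 26 with median-of-ratios scaling, and the 18 called lower became 9 under both. For CJ28 against MET the 19 higher became 30 and the 17 lower 10 over nuclear protein-coding genes. The log2 fold change turned positive over nuclear protein-coding genes for EIF2AK4 (0.15), EIF2B1 (0.033), EIF2S3 (0.11) and EIF4A2 (0.012) against VEH and for EIF2B1 (0.054) and EIF2S3 (0.17) against MET. With median-of-ratios scaling it turned positive for EIF2AK4 against VEH (0.10), EIF2S3 against MET (0.10) and the sum of EIF2S3 and EIF2S3B (0.058 against VEH and 0.10 against MET). Other signs that turned positive were those of EIF2S1, EIF3A, EIF3B, EIF3M and EIF4E3 against VEH under both scalings, of EIF2S3 against VEH with median-of-ratios scaling, of EIF3J against VEH over nuclear protein-coding genes, of EIF2S1, EIF3B and EIF3J against MET under both, and of EIF1AD, EIF3M and EIF4G1 against MET over nuclear protein-coding genes. By construction both scalings raise every gene in CJ28 against VEH. The higher calls of the mTORC1 list (3) became 6 over nuclear protein-coding genes, 5 with median-of-ratios scaling, 1 over all genes with TPM above 0, and 1 to 3 with each sample left out. Over nuclear protein-coding genes the initiation partners had 3 higher and 3 lower and the elongation and release factors 8 higher and 1 lower, and with median-of-ratios scaling their lower calls were 3 and 1. Leaving out each sample gave 31 to 37 genes called for CJ28 against VEH, 16 to 19 of them higher and 15 to 18 lower. Over all 21 alternatives 16 of the 17 higher and 9 of the 18 lower genes kept their call, and 0 genes were called for MET. With 3 against 4 samples the exact test of a ratio or sum cannot go below p = 0.0571.

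Replicate numbers did not pair the samples (mean correlation of deviations between equal numbers 0.0236 for VEH and CJ28), and a fit with the replicate block called 35 genes for CJ28 against VEH, 18 higher and 17 lower, 0 for MET against VEH and 34 for CJ28 against MET. Outside the fits on other scalings, the share of all genes called, or keeping a call, was not taken for the alternative fits. Their counts describe how stable the calls are and cannot be set against all genes. Limits are the 4 samples per group, the lack of read depth in TPM, and the scale, since the median of all genes for CJ28 against VEH moved from -0.13 to 0.09.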
